A study of Mus musculus with 2 samples.

Results

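The insulin receptor family and the insulin-like growth factor (IGF) axis were followed here through 10 genes: the receptor genes Insrr, Insr and Igf1r, the ligand gene Igf1, the protease genes Pappa2 and Pappa, and the binding protein genes Igfbp2, Igfbp3, Igfbp4 and Igfbp5. They were picked by name from the 37681 gene identifiers of the series. The choice was made with values of these data in view, because Insrr and Pappa2 had been noted as very high in the sorted cells. The contrast between the libraries is therefore a description and carries no test.

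Insulin and the IGFs act through paired receptor tyrosine kinases at the cell surface. The insulin receptor and the type 1 IGF receptor bind peptide ligands, whereas the insulin receptor-related receptor, the product of Insrr, has no known peptide ligand and is activated by mildly alkaline medium. In rat stomach its transcript has been found in ECL (enterochromaffin-like) cells, which release histamine to stimulate acid secretion in the corpus. IGFs outside the cell are held by binding proteins (IGFBPs), and the pappalysins, metalloproteases encoded by Pappa and Pappa2, free them by cutting particular IGFBPs.

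RNA was sequenced from epithelium of the stomach corpus of C57BL/6 mice that carried an Hdc-CFP transgene, in which a cyan fluorescent protein reports the histidine decarboxylase gene, Hdc. The Hdc sequences that drive it are not stated in the labels. The stated aim was to learn the origin of the Hdc-expressing cells. The Hdc-CFP-positive library came from sorted CFP-positive cells, and the Hdc-CFP-depleted library from corpus epithelial cells depleted of them. Both groups held 1 library and both carried the transgene, and the labels do not state how many mice were used. With no replicate, every comparison is of these libraries, and the intervals given below are 95% intervals for counting error only.

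Gene counts totalled 10736538 in the positive library and 50928524, or 4.74 times as many, in the depleted library. Levels are normalised CPM (counts per 1000000 of the scaled library total), and a fold is the CPM of the positive over that of the depleted library. All 5 genes listed as ECL cell markers, Hdc, Slc18a2, Cckbr, Chga and Chgb, were higher. They summed to 82718 CPM in the positive and 233 CPM in the depleted library. Chga and Chgb, which are not particular to ECL cells, stood at 63985 and 6190 CPM in the positive library. Hdc, whose reporter was used for the sort, had a fold of 413. Insulin was not seen as a transcript: Ins1 and Ins2 had 0 counts in both libraries. With a limit of 3 counts their counted level lay under 0.246 CPM in the positive and under 0.0668 CPM in the depleted library. This limit covers counting only. The surface mucous marker Tff1 also had 0 counts in both, although Gkn1 of the same list stood at 68248 CPM in the depleted library.

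All 10 genes reached 10 counts in at least 1 library and so counted as measured. Insrr and Pappa2 were higher in the positive library, meaning at least 2-fold apart with an interval that did not include 1. By the same rule Igf1r, Igf1, Igfbp2, Igfbp3 and Igfbp4 were lower, and Insr, Pappa and Igfbp5 were neither. Of all 16682 measured genes, 21.9% were higher and 21.9% lower by this rule. The 2 higher and 5 lower of 10 are therefore read as descriptions of single genes. The same shares stand beside the counts of every marker list. The higher genes made up 50.01% of all calls, or 62.9% when library totals were used without a scaling factor. In bulk RNA, fewer cells of a type and less RNA per cell cannot be told apart.

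**Figure D1:**
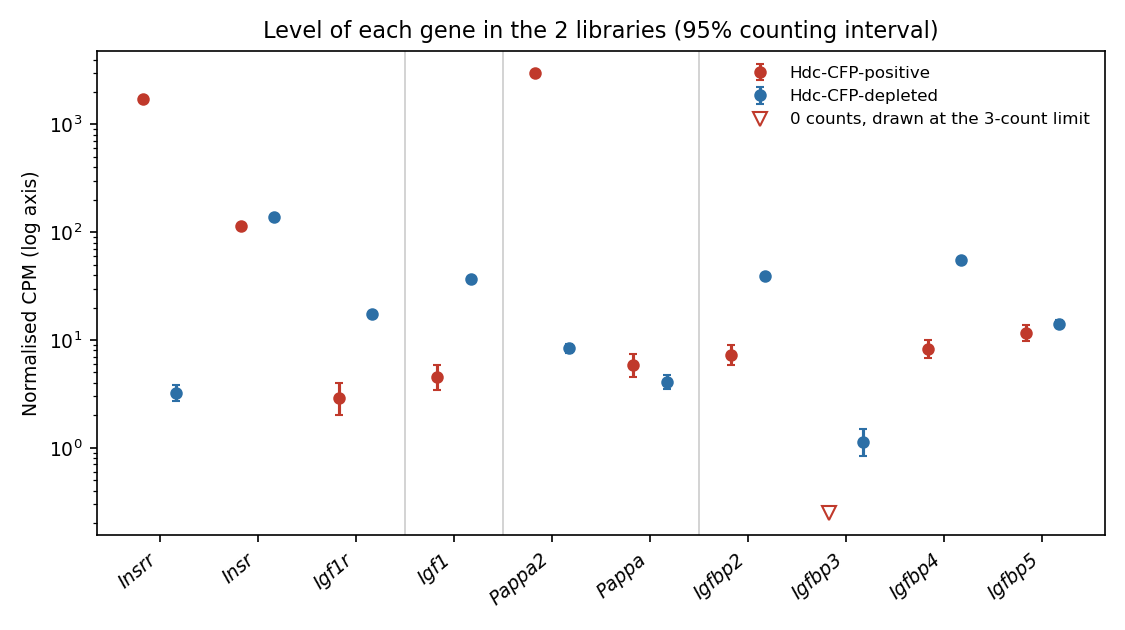
Normalised CPM (log axis) of each gene in the Hdc-CFP-positive (red) and the Hdc-CFP-depleted (blue) library, with 95% counting intervals; vertical lines part receptors, ligand, pappalysins and binding proteins. Insrr and Pappa2 stand at 1741 and 2986 CPM in the positive library and at 3.25 and 8.35 CPM in the depleted one, and the open triangle marks Igfbp3, which had 0 counts in the positive library.

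Insrr (ENSMUSG00000005640) was read 21196 times in the positive library and 146 times in the depleted library. This came to 1741 CPM in the positive library (interval 1717 to 1764) and 3.25 CPM in the depleted library (2.75 to 3.82). Insrr was thus among the abundant transcripts of the sorted cells, at rank 22 of all genes by CPM, and a rare one in the depleted epithelium, at rank 11576. The fold was 535 (455 to 634), larger than that of Hdc, and the low end of its interval ranked 3 among all measured genes. The number of Insrr counts per Hdc count was 0.199 (0.196 to 0.202) in the positive library and 0.154 (0.128 to 0.183) in the depleted library, a ratio that does not depend on the scaling between them.

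Insr (ENSMUSG00000005534), the insulin receptor gene, had 1387 counts in the positive library and 6252 in the depleted library. Its level was 114 CPM in the positive library (108 to 120.1) and 139 CPM in the depleted library (136 to 143). Both libraries expressed it at nearly the same level, a fold of 0.818 (0.771 to 0.867), and without a scaling factor the direction turned, to 1.05. Igf1r (ENSMUSG00000005533), the IGF-1 receptor gene, had 35 counts in the positive and 778 in the depleted library, or 2.87 CPM (2.002 to 3.997) and 17.3 CPM (16.1 to 18.6). It was 6.03-fold lower in the positive library (4.30 to 8.72).

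Within each library the receptor family was therefore made up differently. Insrr took 93.7% of the counts of the 3 receptor genes in the positive library (93.4 to 94.03%, exact binomial interval), against 2.03% in the depleted library (1.72 to 2.39%). Per kilobase of exon its share was 97.3% in the positive and 4.85% in the depleted library. Insr held 2.65% per kilobase in the positive and 86.4% in the depleted library, and Igf1r 0.0547% and 8.80%. Per kilobase, Insrr stood 36.8 times above Insr in the positive library, whereas in the depleted library Insr stood 17.8 times above Insrr.

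Over whole transcripts, 0% of the 50-base words of Insrr and of Igf1r, and 0.225% of those of Insr, also occurred in transcripts of another gene, so few reads of that length could be taken for a relative. No annotated exon of another gene overlapped those of Insrr.

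The ligand gene Igf1 (ENSMUSG00000020053) was lower in the sorted cells, at rank 11258 of all genes by CPM, against rank 5278 in the depleted library. It had 55 counts in the positive and 1651 in the depleted library, or 4.52 CPM (3.40 to 5.88) and 36.8 CPM (35.0 to 38.6). The level in the positive library was 8.14-fold lower (6.22 to 10.9). Igf2, the other IGF ligand, was also lower in the positive library, with 5 counts against 79 (4.28-fold, 1.76 to 13.6). Of its 50-base words 62.1% occurred in transcripts of another annotated gene, so its counts are uncertain.

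Markers of several other cell types were lower, as Igf1 was. Beside these counts, 21.9% of all measured genes were lower. All 8 macrophage markers were lower in the positive library, summing to 10.8 CPM there and 2803 CPM in the depleted library. Of 7 fibroblast markers 5 were lower, with sums of 1.23 CPM in the positive and 19.4 CPM in the depleted library, and Col3a1 and Pdgfra at 0 counts in the positive library. All 4 measured surface mucous markers were lower as well, with sums of 3608 CPM in the positive and 154418 CPM in the depleted library. Tff1, the fifth of that list, had 0 counts in both. All 6 parietal and all 6 tuft cell markers were lower, as were 3 of 4 mucous neck and 2 of 5 chief cell markers. None of these was higher with the main scaling, although the chief cell marker Bhlha15 came close to 2-fold, at 1.90 (1.65 to 2.18). The sums of these lists were 7.10-fold (parietal), 32.7-fold (tuft), 8.15-fold (mucous neck) and 3.94-fold (chief) lower. The positive library still held the chief cell gene Pgc at 15187 CPM and the parietal cell gene Atp4a at 886 CPM. Tissue macrophages and fibroblasts are known sources of IGF-1. The part of any of these cell types in the levels of Igf1, and of the other genes that were lower, was not tested.

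**Figure D2:**
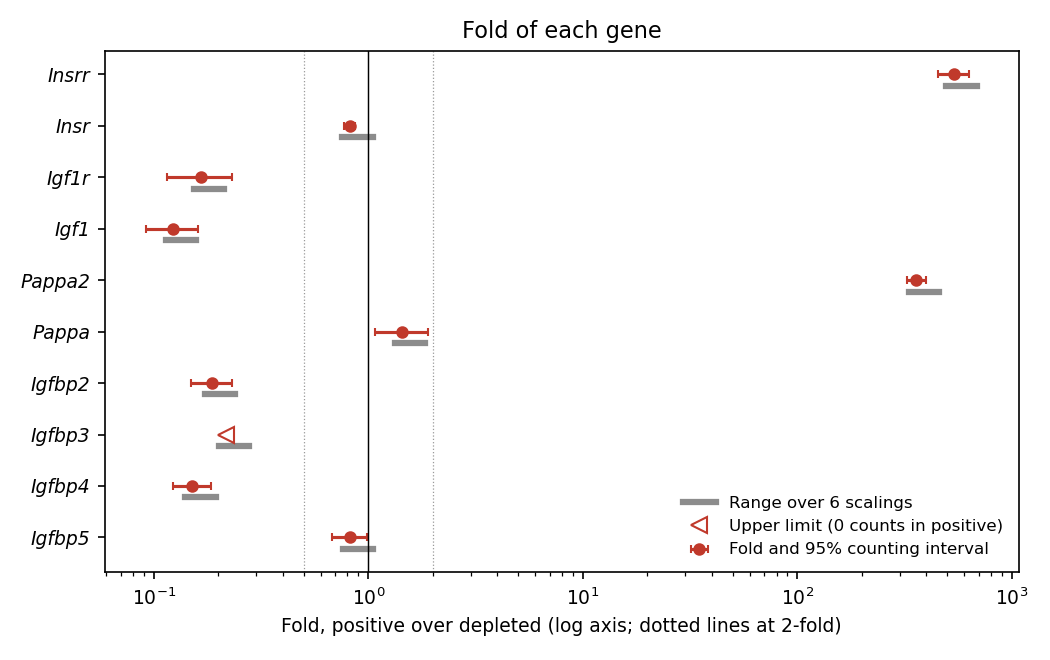
Fold of each gene, positive over depleted library (log axis), with its 95% counting interval in red. The range over 6 ways of scaling the libraries is in grey. Dotted lines mark 2-fold, and the open triangle is Igfbp3 with its 0 positive counts set to 3. The scaling range for Insrr runs from 496 to 689 and that for Pappa2 from 331 to 460, and the ranges for Insr and Igfbp5 cross 1.

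Pappa2 (ENSMUSG00000073530), whose product cuts IGFBP-3 and IGFBP-5, was the more abundant of the pair of high genes by CPM. It had 36363 counts in the positive library and 375 in the depleted library. These correspond to 2986 CPM (2956 to 3017) in the positive library and 8.35 CPM (7.53 to 9.24) in the depleted library. Pappa2 was the gene of rank 12 by CPM in the positive library, with a fold of 358 (323 to 397). Per Hdc count there were 0.341 Pappa2 counts in the positive library (0.337 to 0.345) and 0.394 in the depleted library (0.349 to 0.445).

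Pappa (ENSMUSG00000028370), which encodes the related protease that acts mainly on IGFBP-4, had 71 counts in the positive and 183 in the depleted library. Its level was 5.83 CPM (4.55 to 7.35) in the positive and 4.08 CPM (3.51 to 4.71) in the depleted library. The fold of 1.43 (1.07 to 1.89) did not reach 2. Nearly all pappalysin counts of the sorted cells thus came from Pappa2, 99.8% (99.75 to 99.85%), against 67.2% (63.1 to 71.1%) in the depleted library. Per kilobase the shares were 99.8% and 68.7%.

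Both pappalysins carry the zinc-binding site of the metzincin proteases, shown here as the feature that makes both genes proteases of one kind although the sorted cells expressed only 1 of them at a high level. The codons of the zinc-site residues, 3 histidines, a glutamate and a glycine, are in capitals. Both stretches are 57 bases from exon 4 of 22 (GENCODE M21, GRCm38), at chr1:158857324-158857380 on the minus strand and chr4:65180908-65180964 on the plus strand.
Pappa2: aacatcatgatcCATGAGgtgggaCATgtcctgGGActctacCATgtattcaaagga
Pappa: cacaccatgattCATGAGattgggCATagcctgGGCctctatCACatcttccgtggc

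Over this stretch 40 of 57 bases were identical. Of the 50-base words of Pappa2 2.66% occurred in another gene, chiefly 1600012P17Rik, a long non-coding RNA gene on the same strand. That gene shared 310 exon bases with Pappa2, or 3.01% of the Pappa2 exon length. It was itself higher in the positive library, with 744 counts against 15, a fold of 183 (110.2 to 328). How reads in the shared bases were counted is not known, because the annotation release used for counting is not given. The value of 1600012P17Rik was looked up because of the overlap and lies outside the rule for named genes.

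The RefSeq promoter table (GRCm38.p6) held 7 of the 10 genes, and not Insrr, Insr or Pappa. The 250 bases before the start of Pappa2 are shown as the only promoter of a high gene in that table, at chr1:158958176-158958425 on the minus strand, with matches to CANNTG in capitals. This pattern is the E-box, the core motif read by basic helix-loop-helix factors. The pattern reads the same on both strands, although the match printed below does not.
Pappa2 promoter: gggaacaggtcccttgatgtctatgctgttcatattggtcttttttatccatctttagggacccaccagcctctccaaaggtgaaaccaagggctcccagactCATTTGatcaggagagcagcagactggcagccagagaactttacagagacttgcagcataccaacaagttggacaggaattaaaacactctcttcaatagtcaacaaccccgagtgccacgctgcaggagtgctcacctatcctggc
The window held 1 match, and 66.2% of the 32851 windows of this length held at least 1. It held 2 CG pairs, a number or fewer found in 29.0% of windows. By comparison, the windows of Igf1 and Igfbp3 also held 1 match each, with 5 and 32 CG pairs.

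The binding protein genes were low in the sorted cells. Igfbp2 (ENSMUSG00000039323) had 89 counts in the positive and 1758 in the depleted library, or 7.31 CPM (5.87 to 8.99) and 39.2 CPM (37.3 to 41.02). Igfbp4 (ENSMUSG00000017493), the main substrate of pappalysin-1, had 101 counts against 2469, or 8.29 CPM (6.76 to 10.1) in the positive and 54.98 CPM (52.8 to 57.2) in the depleted library. In the positive library Igfbp2 was 5.36-fold lower (4.33 to 6.70). Igfbp4 was 6.63-fold lower (5.43 to 8.17).

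The known substrates of pappalysin-2 were scarce or close between the libraries. Igfbp3 (ENSMUSG00000020427), the main carrier of IGFs in plasma, had 0 counts in the positive library and 51 in the depleted library. With 3 counts put in place of 0, the positive level would be 0.246 CPM, against 1.14 CPM (0.846 to 1.49) in the depleted library. The 95% counting interval of the positive level reached 0.303 CPM. At 3 counts Igfbp3 would be 4.61-fold lower. The 95% counting interval of the fold, which also covers the depleted count, allows as little as 3.62-fold. Igfbp5 (ENSMUSG00000026185) had 141 counts in the positive and 634 in the depleted library, or 11.6 CPM (9.75 to 13.7) and 14.1 CPM (13.04 to 15.3). Its fold of 0.820 (0.678 to 0.986) did not reach 2, and without a scaling factor the direction turned, to 1.05.

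Igfbp5 took a larger share of the binding protein counts in the sorted cells. It held 42.6% (37.2 to 48.1%) of the counts of the 4 Igfbp genes in the positive library and 12.9% (11.98 to 13.9%) in the depleted library. Igfbp4 held 30.5% (25.6 to 35.8%) in the positive and 50.3% (48.9 to 51.7%) in the depleted library. Per kilobase, Igfbp2 held the largest share in both libraries, 51.0% in the positive and 58.3% in the depleted one. The share of Igfbp5 per kilobase was 24.8% in the positive and 6.47% in the depleted library.

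**Figure D3:**
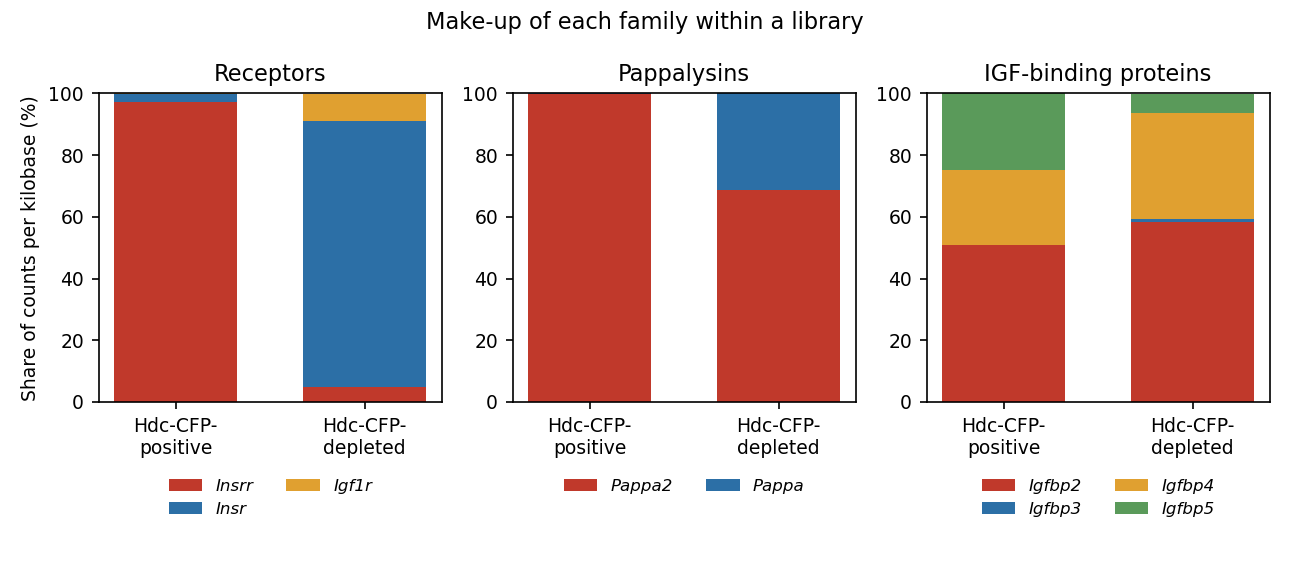
Share (%) of counts per kilobase of exon that each gene took within its family, in the Hdc-CFP-positive (left bar) and the Hdc-CFP-depleted library (right bar). Insrr fills 97.3% of the receptor bar in the positive and 4.85% in the depleted library, Pappa2 99.8% and 68.7% of the pappalysin bar, and Igfbp5 24.8% and 6.47% of the binding protein bar.

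The order of levels per kilobase of exon in the positive library was Insrr (305 CPM per kilobase), Pappa2 (290.1), Insr (8.29), Igfbp2 (3.96), Igfbp5 (1.93), Igfbp4 (1.88), Pappa (0.529), Igf1 (0.456) and Igf1r (0.171), with Igfbp3 at 0 counts. Igfbp5 and Igfbp4, and Pappa and Igf1, did not differ beyond counting error, and both pairs changed places when the longest transcript was taken as the length. A gap of 35.0-fold parted Pappa2 from Insr. In the depleted library Igfbp2 led at 21.2 CPM per kilobase, followed by Igfbp4 (12.5), Insr (10.1), Igf1 (3.71), Igfbp5 (2.35), Igf1r (1.03), Pappa2 (0.811), Insrr (0.569), Pappa (0.370) and Igfbp3 (0.363). Pappa and Igfbp3 did not differ there beyond counting error, and with longest-transcript lengths they changed places, as did Igfbp4 and Insr.

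**Figure D4:**
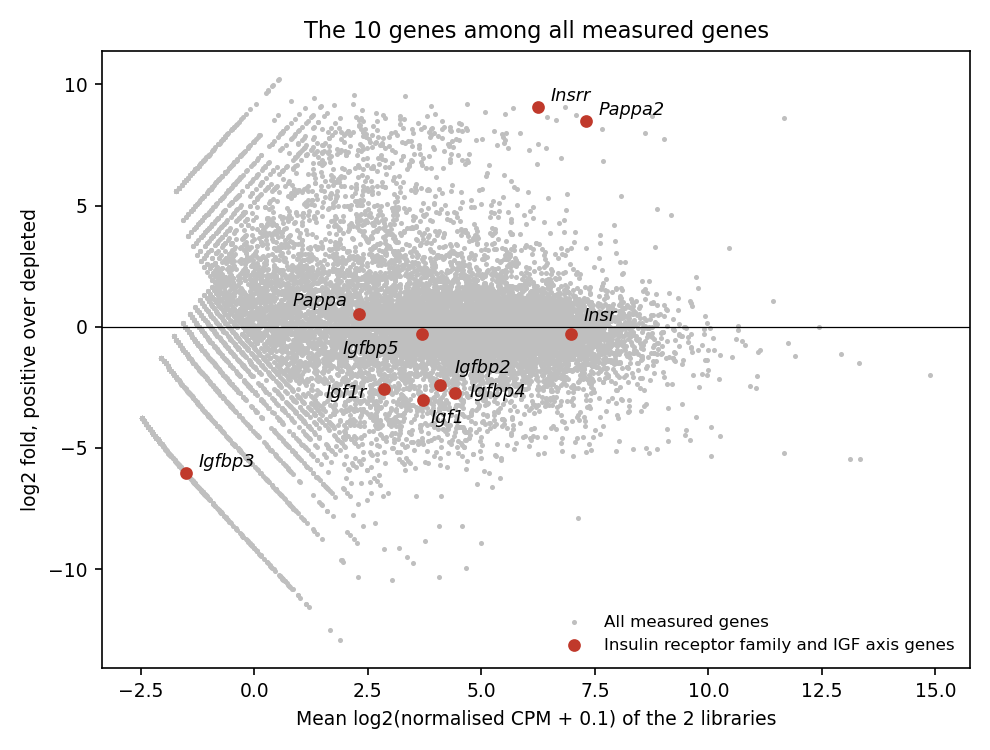
Log2 fold, positive over depleted (vertical), against the mean of log2(normalised CPM + 0.1) of both libraries (horizontal) for all measured genes in grey, with the 10 genes in red. Insrr (log2 fold 9.06) and Pappa2 (8.48) lie at the upper edge of the cloud, Pappa, Insr and Igfbp5 lie near 0, and the place of Igfbp3, with 0 counts in the positive library, depends on the 0.5 counts added for the log2 value.

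The genes nearest to Insrr and Pappa2 in level were found by distance in log2 CPM over the 2 libraries. For Insrr these were Rab3c, a vesicle GTPase gene (1727 CPM in the positive and 4.28 CPM in the depleted library), Ccn3, which encodes a matricellular protein (1927 and 5.17 CPM), and Cel, the bile salt-activated lipase gene (1172 and 2.20 CPM). For Pappa2 they were Vtn, the vitronectin gene (2789 CPM in the positive and 6.57 CPM in the depleted library), Slc18a2, whose product loads monoamines into vesicles (3402 and 11.7 CPM), and Gc, which encodes the vitamin D-binding protein (2620 and 4.85 CPM). With only 2 libraries this likeness says no more than that the levels were close.

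Several marker lists moved in the same direction as Insrr and Pappa2, and their part in the result was not tested. Beside these counts, 21.9% of all measured genes were higher. Beside the ECL markers, all 6 markers of other endocrine cells were higher in the positive library, summing to 5156 CPM there and 546 CPM in the depleted library. All 4 measured pancreatic acinar markers were higher too, with sums of 1538 CPM in the positive and 3.85 CPM in the depleted library and Cpa1 at 0 counts in both. Of 6 markers of mast cells, which also express Hdc, 4 were higher, with sums of 248 CPM in the positive and 104 CPM in the depleted library. The measured folds of the lists as sums were 355 for ECL cells, 9.45 for other endocrine cells, 399 for acinar cells and 2.38 for mast cells. Single genes weighed heavily in these sums, with Ghrl at 4348 CPM and Cel at 1172 CPM in the positive library. Folds of other endocrine markers ran from 3.32 (Gast) to 435 (Pyy, with 1 count in the depleted library). Those of mast cell markers ran from 1.78 (Mcpt1) to 27.9 (Mcpt4), and those of ECL markers from 31.0 (Cckbr) to 413 (Hdc).

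The rest of the pathway was described through 87 further genes in 10 lists, of which 80 were measured. Of these, 9 were higher and 12 lower in the positive library, and 59 were neither, beside 21.9% of all measured genes in each direction. The same 21.9% in each direction stands beside the counts of every list below, which are read as descriptions of single genes. The balance turned with the scaling: 13 were higher and 10 lower with library totals, and 12 and 10 with totals that left out the 20 most abundant genes of either library. The median log2 fold was -0.15, against -0.05 over all measured genes.

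**Figure D5:**
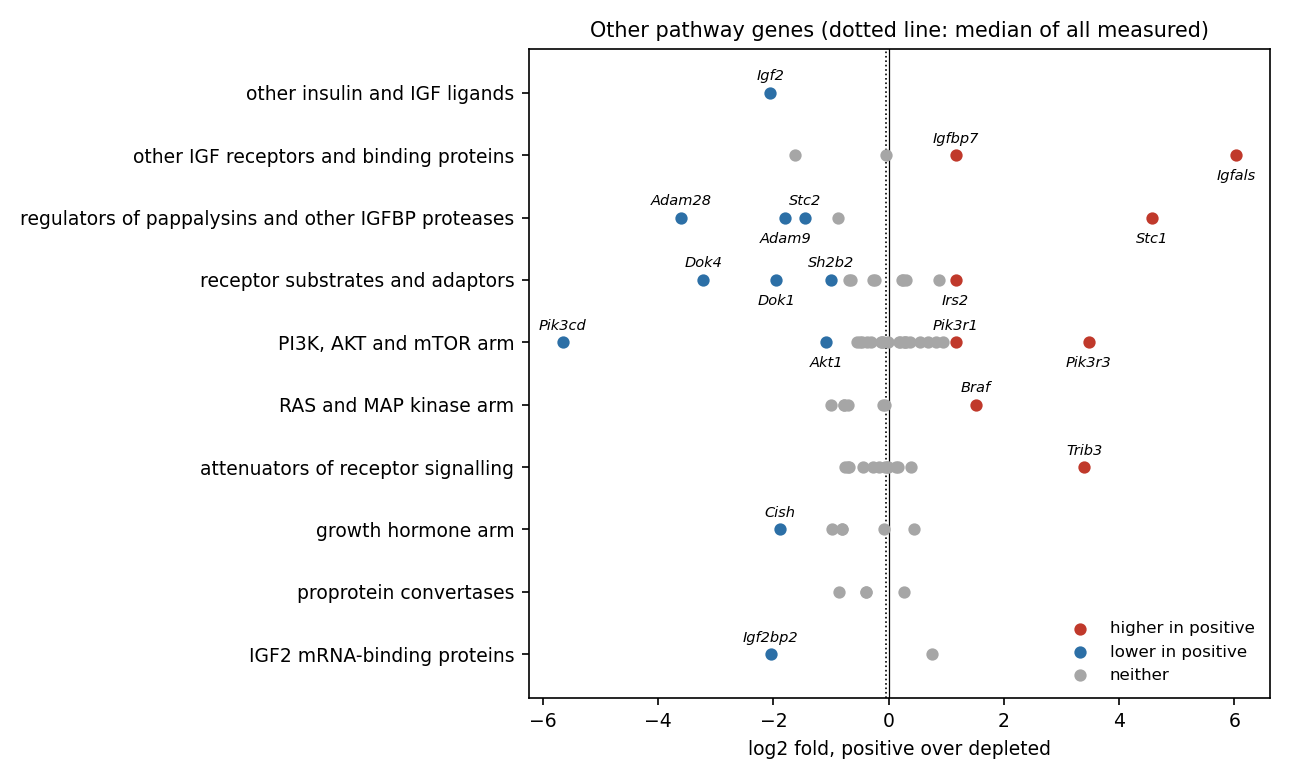
Log2 fold, positive over depleted, of the measured genes of the 10 pathway lists that are reported here (1 row per list); red and blue points are genes higher or lower in the positive library by at least 2-fold with an interval clear of 1, grey points are neither. Igfals, Stc1, Pik3r3 and Trib3 lie farthest to the right and Pik3cd farthest to the left, while the rows of the proprotein convertases and of most attenuators are grey.

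Among other receptors and carriers, 2 of 4 measured genes were higher and 0 lower. Igfals encodes the acid-labile subunit, which joins IGF and IGFBP-3 or IGFBP-5 in a ternary complex. It had 297 counts in the positive and 16 in the depleted library, corresponding to 24.4 against 0.356 CPM and a fold of 68.4 (41.5 to 121). Igfbp7, a protein that binds IGFs weakly, had 27 counts against 44 and a fold of 2.26 (1.35 to 3.74). Igf2r, the receptor that takes IGF-2 to lysosomes, was close in both, at 156 CPM in the positive and 161 CPM in the depleted library, and Igfbp6 had 1 count against 13.

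Of 5 measured genes that restrain pappalysins or encode other IGFBP proteases, 1 was higher and 3 lower. The stanniocalcins, inhibitors of pappalysins, went in opposite directions. Stc1 had 37 counts in the positive and 5 in the depleted library (fold 27.3, 10.7 to 89.0). Stc2 had 245 counts against 2466, or 20.1 CPM in the positive and 54.9 CPM in the depleted library, and was 2.73-fold lower (2.39 to 3.13). By level Stc2 remained the main stanniocalcin in both libraries. The metalloprotease gene Adam28 was 12.2-fold lower (9.79 to 15.4), and Adam9 was 3.47-fold lower (3.24 to 3.72).

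Of 12 measured substrates and adaptors that carry the receptor signal, 1 was higher, 3 lower and 8 neither (median log2 fold -0.26). Of all measured genes 21.9% were higher and 21.9% lower. With library totals 2 were higher and 2 lower. Irs2, an insulin receptor substrate, was the higher one at 81.4 CPM in the positive and 36.4 CPM in the depleted library (fold 2.24, 2.06 to 2.42). Sos1 and Sh2b1 stood at 77.6 and 73.1 CPM in the positive and 63.3 and 61.5 CPM in the depleted library. Grb2 stood at 50.3 CPM in the positive and 60.5 CPM in the depleted library. Dok4 was 9.30-fold lower (7.36 to 11.9), with 25.4% of its 50-base words also in another gene.

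In the arm of phosphoinositide 3-kinase (PI3K), AKT and mTOR, 3 of 24 measured genes were higher and 2 lower (median log2 fold 0.19). With library totals 6 were higher and 1 lower, and without the 20 most abundant genes 5 and 1. Pik3r1, the main regulatory subunit gene, reached 467 CPM in the positive and 209 CPM in the depleted library (fold 2.24, 2.17 to 2.31). Pik3r3, chosen after its value was seen, had a fold of 11.1 (10.03 to 12.3), with 23.2% of its words in another gene. Akt1 was 2.12-fold lower (2.02 to 2.22), at 163 CPM in the positive and 347 CPM in the depleted library, but it did not reach 2-fold under those scalings (1.65-fold and 1.83-fold).

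Pik3cd, the catalytic subunit gene used mainly by leukocytes, had 8 counts in the positive and 1529 in the depleted library and was 51.8-fold lower (26.2 to 120.3). All 5 leukocyte markers were lower with it, summing to 51.8 CPM in the positive and 559 CPM in the depleted library, and their part was not tested. Mtor stood at 111 CPM in the positive and 145 CPM in the depleted library, and Tsc2, which restrains mTOR, at 150.2 and 116 CPM.

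Of 9 genes of the RAS and MAP kinase arm, 1 was higher and 1 lower. The higher one was Braf, a kinase that acts on MEK, at 130.2 CPM in the positive and 45.5 CPM in the depleted library (fold 2.86, 2.68 to 3.05). Mapk3, a kinase of the last step, stood at 191 CPM in the positive and 310 CPM in the depleted library. The median log2 fold of the list was -0.70.

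Among 13 attenuators of receptor signalling, 1 was higher and 0 lower (median log2 fold -0.06). Trib3, a pseudokinase that binds AKT, had 292 counts in the positive and 102 in the depleted library, a fold of 10.6 (8.40 to 13.4). The phosphatase genes Ptprf and Inppl1 were the most abundant, at 428 and 275 CPM in the positive and 437 and 209 CPM in the depleted library. Socs3 stood at 101 CPM in the positive and 122 CPM in the depleted library, and Ide, the insulin-degrading enzyme gene, at 65.6 and 105 CPM.

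Growth hormone drives Igf1 through its receptor, JAK2 and STAT5. Of 6 genes of this arm 0 were higher and 1 lower: Cish, a feedback inhibitor, was 3.68-fold lower (3.09 to 4.43). The receptor gene Ghr stood at 84.5 CPM in the positive and 62.6 CPM in the depleted library, Jak2 at 58.4 and 103 CPM, Stat5b at 47.4 and 50.2 CPM, and Socs2 at 24.7 and 43.3 CPM. The receptor was therefore measured in the sorted cells, where Igf1 itself had 55 counts.

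None of the 4 proprotein convertase genes, whose products cut the receptor precursors into their subunits, was higher or lower. Furin stood at 229.8 CPM in the positive and 302 CPM in the depleted library, Pcsk6 at 57.7 and 75.4 CPM, Pcsk7 at 55.6 and 102 CPM, and Pcsk5 at 1.15 and 0.958 CPM. Of the IGF2 mRNA-binding proteins, Igf2bp2 was 4.13-fold lower (3.59 to 4.78), Igf2bp3 had 7 counts in the positive and 15 in the depleted library, and Igf2bp1 had 0 in both.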

How the data were processed

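Each library came as deposited raw counts of reads for every Ensembl gene. TopHat2 2.0.07, HTSeq and the mm9 build are named, per the submitters' processing notes, and a TruSeq RNA kit per the labels' protocols. The HTSeq version, strand setting, annotation release and read length are not given in the sources used here, so antisense reads cannot be told apart. Alignments that were not unique made up 24.2% of all counted alignments in the positive and 34.3% in the depleted library, those in no gene 9.20% and 4.91%, and those matching more than 1 gene 1.45% and 1.11%. They stayed out of library sizes and levels.

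Symbols, exon lengths and coding sequences came from GENCODE M21 (GRCm38), which named 32642 of 37681 identifiers. Since counting was on mm9, lengths are approximate and coordinates belong to the sequences only. CPM used edgeR 4.0.16 TMM factors over measured genes (1.13 for the positive and 0.882 for the depleted library). A gene was measured if either library had 10 or more counts for it. Folds carry Clopper-Pearson intervals from the split of counts between libraries, and levels carry exact Poisson intervals. Both cover counting error only. A count of 0 was set to 3 counts for bounds, a fixed value below the upper end of its Poisson interval. Medians used log2 folds with 0.5 counts added in proportion to library size. No test was run and no p-value is given, as each group held 1 library. The interval and call steps were tested on simulated data. The simulated counts held counting error only, so variation between replicate libraries was not covered.

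The genes, lists and rules were chosen with earlier results of these data known. Named pathway genes are the up to 4 with the highest CPM in each list and, for each direction, the called gene whose interval ended farthest from 1, beside the 10 genes themselves and the 3 nearest in level to Insrr and to Pappa2. The alternatives were other scalings (including DESeq2 1.42.0 size factors), count minimums, a 4-fold rule, 2 added counts and longest-transcript lengths, all planned, and TMM over all genes, which was chosen after seeing the data. Some results, among them genes this rule names, are not reported here.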

Additional observations from a re-analysis of the deposited data

How the results depend on the processing

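Under each of the 6 scalings with the main rule, 2 of the 10 genes were higher and 5 lower. The same held with the main scaling under both count minimums and the 4-fold rule, which were not combined with other scalings. Scaling moved the median log2 fold of all measured genes by up to 0.36 (library totals without a factor). With that scaling the folds of Insr and Igfbp5 passed 1 (1.05 for each), and neither is called higher or lower under any scaling tried. Requiring a fold of at least 4 with the interval beyond 2 left 5 pathway genes higher and 4 lower, in place of 9 and 12, and 13.6% of measured genes higher and 11.3% lower, in place of 21.9% each. Akt1 and Sh2b2 were no longer called lower with library totals or without the 20 most abundant genes, and Sh2b2 also not with DESeq2 or upper-quartile factors. TMM factors over all genes were added after the data were seen and gave Insrr a fold of 496 and Pappa2 331, with 2 genes lower in place of 1 in both the RAS and the growth hormone arm. With its 0 counts set to 3, Igfbp3 ranged from 3.58-fold (library totals) to 4.98-fold lower, so its low end fell short of 4-fold. The shifts named here came from settings that rescale all genes of a library alike or raise the fold threshold. No paired analysis was possible because each group held 1 library, and for the same reason no library could be left out. Small counts left wide intervals for Igfbp3, Igfbp6, Igf2, Stc1 and Igf2bp3, among others.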

Other observations

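In gene sets with several relatives, the make-up differed between the libraries in further cases, which were picked after their values were seen. Pik3r3 took 19.0% (18.1 to 19.9%) of the counts of the PI3K regulatory subunit genes Pik3r1, Pik3r2 and Pik3r3 in the positive library and 3.75% (3.44 to 4.08%) in the depleted library. Stc1 took 13.1% (9.41 to 17.6%) of stanniocalcin counts in the positive and 0.202% (0.0657 to 0.472%) in the depleted library. Pik3r1 kept nearly the same share of its set, 69.0% in the positive and 67.5% in the depleted library. The brackets are exact binomial 95% intervals for counting error, and these shares do not depend on the scaling between libraries.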
